A study of Mus musculus with 9 samples.

Results

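Tubulin isotypes and the tubulin-binding protein stathmin were followed in B16 cells, a mouse melanoma line. The 10 genes were taken by their symbols. They are the alpha-tubulin genes Tuba1a, Tuba1b and Tuba1c, the beta-tubulin genes Tubb2a, Tubb2b, Tubb3, Tubb4b, Tubb5 and Tubb6, and the stathmin gene Stmn1. All 10 were found among 22972 gene names, and all 10 were among the 10109 genes tested, those that averaged 1 FPKM or more across all libraries. FPKM, the count of fragments set against transcript length and mapped fragments, is scaled by gene length and by library, so levels of different genes can be set side by side. Rows were taken by symbol and not by their level, but the list of genes was drawn up with earlier results of these data known.

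The 9 libraries were made from wild-type B16 cells grown on a film of the silicone PDMS and collected on day 3, with 3 libraries in each of 3 groups. CTL cells were unstrained controls, MS cells were cyclically strained through the film for 72 h, and Blebb cells were given 100 ng/mL blebbistatin, an inhibitor of the actin motor myosin II, for 72 h. The labels of the Blebb group do not name straining, whereas the study's text describes the inhibitor as given to strained cells. B16 is 1 cell line, and the labels number the libraries of a group as parallel experiments without saying whether these were separate cultures, so the tests measure the spread between these libraries, which may be technical.

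The labelled cell type matched its markers. All 7 melanocyte markers were detected in every library, and their summed level was between 7444 and 12933 FPKM. The summed levels of 6 fibroblast, 6 keratinocyte and 6 neuron markers were at most 0.567, 0.036 and 0.035 FPKM, and those of 6 macrophage markers lay between 2.10 and 4.32 FPKM. CTL replicate 1, MS replicate 3 and Blebb replicate 2 were known from earlier work on these data to stand apart. Along the first principal component, which held 70.4% of the variance of the tested genes, CTL replicate 1 was at -42.1, Blebb replicate 2 at -43.9 and MS replicate 3 at -10.0, and Blebb replicate 1 was at -7.29 with the other libraries between 6.07 and 35.8. For the members, group comparisons, ranges and nearest profiles are given below with and without these 3 libraries where they rest on them. Counts in the gene lists and distances between members are over all 9 libraries only.

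Microtubules are hollow polymers of alpha- and beta-tubulin dimers that build the mitotic spindle and serve as tracks for motor proteins. Mammals carry several genes, or isotypes, for each subunit, whose products are nearly alike in the folded body and differ mostly in an acidic tail at the carboxyl end, where many enzymes that modify tubulin act. Tuba1b, Tuba1c, Tubb5 and Tubb4b are the common isotypes of dividing cells, Tuba1a and Tubb2b are abundant in the developing nervous system, Tubb3 is widely used as a marker of neurons, and Tubb6 is a divergent beta isotype. Stathmin binds free dimers, promotes the shrinking of microtubules, and is switched off by phosphorylation in mitosis. Cells also hold their tubulin mRNA in check by autoregulation. When free dimers are plentiful, the factor TTC5 recognises the first residues of a tubulin chain as it leaves the ribosome, and the mRNA being translated is degraded.

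The first 30 coding bases of 5 members are shown because that recognition acts on the first 4 codons, which are in capitals. They were read from GENCODE M21 transcripts on build GRCm38, 5′ to 3′ on the coding strand.
Tuba1a: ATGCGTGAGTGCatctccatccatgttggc
Tuba1b: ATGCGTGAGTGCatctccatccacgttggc
Tubb5: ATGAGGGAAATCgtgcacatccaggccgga
Tubb4b: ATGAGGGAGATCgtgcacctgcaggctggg
Stmn1: ATGGCATCTTCTgatattcaggtgaaagag
The capitals were the same in both alpha genes and coded for the same residues in the 2 beta genes. Those of Stmn1, which makes no tubulin, were unlike either.

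The other end of the coding sequence holds what tells the beta isotypes apart. The last 20 codons and the stop codon of 3 beta members are shown, with the codons for glutamate and aspartate, the acidic residues of the tail, in capitals.
Tubb5: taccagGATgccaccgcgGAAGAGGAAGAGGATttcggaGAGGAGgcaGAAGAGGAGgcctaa
Tubb4b: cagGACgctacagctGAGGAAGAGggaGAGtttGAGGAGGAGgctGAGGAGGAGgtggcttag
Tubb3: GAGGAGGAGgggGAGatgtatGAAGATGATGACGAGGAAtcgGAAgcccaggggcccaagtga
These 3 beta tails each held 11 acidic codons of 20.

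The likeness of isotypes limits how surely reads are given to a gene. The 3 alpha genes lie near each other on chromosome 15, Tuba1b at chr15:98931425-98934565 and Tuba1a at chr15:98949837-98953703 on the minus strand and Tuba1c at chr15:99029891-99038110 on the plus strand. Over the coding sequence, Tuba1a and Tuba1b were 98.3% identical, Tuba1b and Tuba1c 97.9%, and Tuba1a and Tuba1c 97.1%. Of the 50-base windows along their transcripts, 72.9% in Tuba1a, 73.8% in Tuba1b and 61.0% in Tuba1c occurred unchanged in the transcript of another gene. Their separate levels are therefore uncertain, since how reads with several matches were counted is not given in the sources used here.

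Among the beta genes the problem was smaller and uneven. Tubb2a and Tubb2b, on chromosome 13, were 96.5% identical and shared 49.6% and 39.3% of their windows with other genes, mostly each other. Tubb4b, on chromosome 2, shared 50.9%, largely with the pseudogene Tubb4b-ps1, and Stmn1, on chromosome 4, shared 36.5%, largely with Gm11223. Tubb5, on chromosome 17, shared 0.1% of its windows, and Tubb3 and Tubb6 shared 0%. Every other pair of beta members was between 80.2% and 85.7% identical. The levels of Tubb5, Tubb3 and Tubb6 can thus be read by gene, and those of the alpha genes better by their sum than singly. The alpha sum is itself uncertain, since windows were also shared with genes outside it. Gm17383 held 46.6% of the windows of Tuba1a and 47.7% of those of Tuba1b, and Gm3226 held 38.7% of those of Tuba1c. The alpha to beta ratio and Stmn1 per tubulin below carry the same limit.

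Tuba1b was the most abundant member in every library. Its level was 705, 1485 and 1356 FPKM in CTL replicates 1 to 3, 1374, 1381 and 732 FPKM in MS, and 1623, 847 and 1282 FPKM in Blebb. In each group 1 library was far below the others, and the 3 groups overlapped. By its mean of 1198 FPKM it ranked 44th of the tested genes.

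Tubb5, the main beta isotype, followed with 375, 674 and 776 FPKM in CTL, 694, 716 and 437 FPKM in MS, and 811, 389 and 663 FPKM in Blebb. The low libraries were the same as for Tuba1b. Tuba1b was higher than Tubb5 in 9 of 9 libraries, by 1.68 to 2.21 times.

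Tuba1a differed in profile. It was at 406, 522 and 450 FPKM in CTL, 502, 478 and 415 FPKM in MS, and 536, 479 and 355 FPKM in Blebb. Its lowest library was Blebb replicate 3, not Blebb replicate 2, and its highest value was 1.51 times its lowest, against 2.30 times for Tuba1b. Without CTL replicate 1, MS replicate 3 and Blebb replicate 2 the order turned, with 1.51 times for Tuba1a and 1.27 times for Tuba1b. Tubb5 was above Tuba1a in 7 of 9 libraries, so their order did not hold throughout. The exceptions were CTL replicate 1 and Blebb replicate 2.

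Tuba1c, the third alpha isotype, was at 216, 390 and 351 FPKM in CTL, 359, 363 and 193 FPKM in MS, and 424, 241 and 353 FPKM in Blebb. Tubb4b, the second beta isotype, was at 206, 341 and 371 FPKM in CTL, 367, 382 and 216 FPKM in MS, and 392, 209 and 351 FPKM in Blebb. Neither stood above the other beyond its spread, and Tuba1c was the higher in 5 of 9 libraries.

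Stmn1 came next, with 162, 224 and 269 FPKM in CTL, 250, 227 and 174 FPKM in MS, and 259, 167 and 239 FPKM in Blebb. It was below Tubb4b in 9 of 9 libraries. Over all 9 libraries its highest level was 1.66 times its lowest. This range was narrower than that of Tuba1b, Tubb5, Tuba1c and Tubb4b and wider than that of Tuba1a. The order turned in part without CTL replicate 1, MS replicate 3 and Blebb replicate 2. The range of Stmn1 was then wider than that of Tubb4b and narrower than that of Tuba1a. It stayed narrower than that of Tuba1b and Tubb5 and was close to that of Tuba1c. The nerve-cell relatives Stmn2, Stmn3 and Stmn4 were listed at 0 or at no more than 0.0754 FPKM in every library, so Stmn1 was the one member of its family expressed at a level that entered the tests.

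The other 4 beta isotypes were minor. Tubb6 was at 32.4, 68.7 and 71.9 FPKM in CTL, 61.5, 68.3 and 33.4 FPKM in MS, and 79.3, 37.7 and 68.6 FPKM in Blebb. Over all 9 libraries it had the widest range of the members, 2.45 times, but without the 3 libraries that stand apart its range was 1.29 times and that of Tubb3, 1.53 times, was the widest. Tubb3 was at 33.8, 37.5 and 48.0 FPKM in CTL, 49.9, 40.5 and 37.0 FPKM in MS, and 46.9, 29.4 and 32.7 FPKM in Blebb. This was in cells whose neuron markers were at or near 0. Tubb6 was above Tubb3 in 7 of 9 libraries.

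Tubb2a was at 11.7, 15.4 and 17.5 FPKM in CTL, 19.2, 17.0 and 10.9 FPKM in MS, and 16.9, 13.0 and 15.2 FPKM in Blebb. Its near copy Tubb2b was the least abundant member, at 3.78, 3.93 and 4.96 FPKM in CTL, 5.58, 5.04 and 3.15 FPKM in MS, and 4.42, 3.87 and 3.80 FPKM in Blebb. Tubb2a stood 3.09 to 4.01 times above Tubb2b in each library, and their ranges did not overlap. From Tuba1b to Tubb2b, the mean levels ran from 1198 to 4.28 FPKM.

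**Figure D1:**
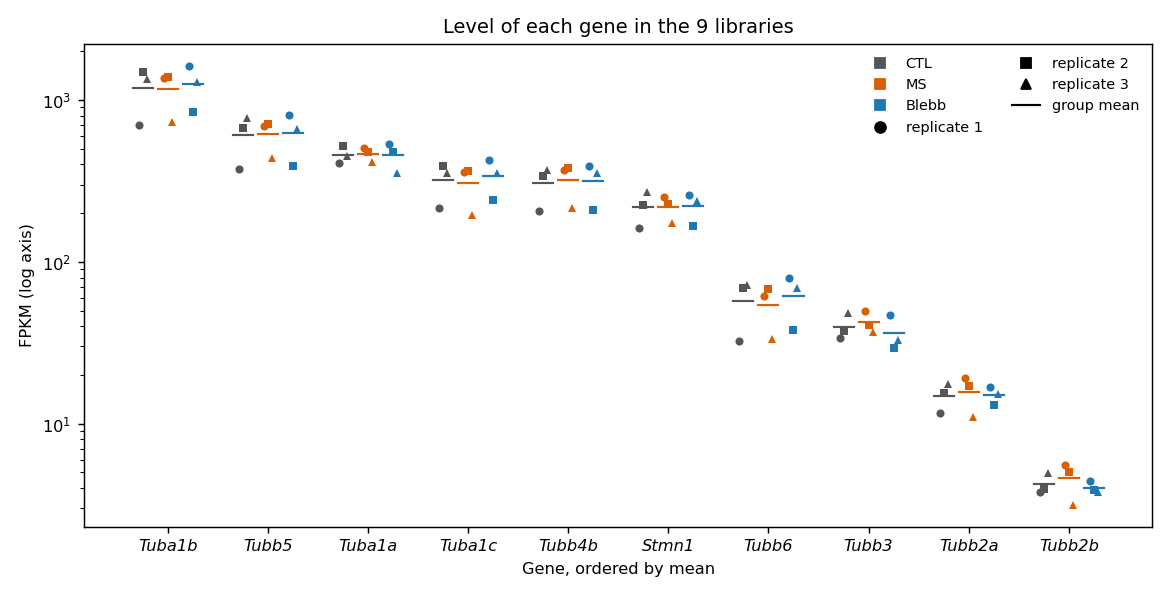
FPKM of each of the 10 genes on a log axis, ordered by their mean, with 1 point per library, coloured by group and shaped by replicate number, and a bar at each group mean. The group means of a gene lie close together, while CTL replicate 1, MS replicate 3 and Blebb replicate 2 are the lowest of their groups for Tuba1b, from 705 to 847 FPKM against 1282 to 1623 FPKM elsewhere.

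Other tubulin genes added little. Tuba4a, an alpha isotype outside the 10, was at 20.2 to 40.2 FPKM, between 1.08% and 1.65% of all alpha-tubulin FPKM. Tuba3a, Tuba3b, Tuba8, Tubal3, Tubb1 and Tubb4a each stayed under 1 FPKM on average and were not tested. Tubg1, the gamma-tubulin that nucleates microtubules, was at 83.3 to 142 FPKM.

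By value, the alpha isotypes kept the order Tuba1b, Tuba1a, Tuba1c in all 9 libraries, but the distance between them varied. In Blebb replicate 3 Tuba1a and Tuba1c were nearly level, at 355 and 353 FPKM, so their order there is not sure. Tuba1b held 52.3%, 60.9% and 62.2% of the summed alpha-tubulin FPKM in CTL replicates 1 to 3, 60.5%, 61.2% and 53.8% in MS, and 62.1%, 53.2% and 63.5% in Blebb. Tuba1a held 30.1%, 21.4% and 20.6% in CTL, 22.1%, 21.2% and 30.5% in MS, and 20.5%, 30.1% and 17.6% in Blebb. In 1 library of each group, Tuba1a therefore made up 30.1% to 30.5% of the alpha-tubulin FPKM, and in the other 6 libraries between 17.6% and 22.1%.

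A share is taken within a library and does not move with how that library was scaled. Put as a ratio, there were 0.576, 0.352 and 0.332 FPKM of Tuba1a per FPKM of Tuba1b in CTL, 0.365, 0.346 and 0.567 in MS, and 0.330, 0.566 and 0.277 in Blebb. The ratio of Tuba1c to Tuba1b moved far less, from 0.259 to 0.306. Tuba1c accordingly stayed between 14.2% and 17.5% of the alpha sum.

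The shares of the 2 main beta isotypes were steadier, while those of some minor ones were not. Tubb5 held 56.5% to 60.2% of the summed beta-tubulin FPKM, and Tubb4b 28.8% to 31.1%, so these 2 genes supplied most of it in every library. Tubb4b was at 0.478 to 0.551 of the level of Tubb5. Of the minor isotypes, Tubb6 held 4.53% to 6.04%, Tubb2a 1.26% to 1.91% and Tubb2b 0.327% to 0.571%. Tubb3 ranged from 2.88% to 5.10%, and its largest shares were 5.10% in CTL replicate 1 and 5.01% in MS replicate 3, with 4.31% in Blebb replicate 2.

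**Figure D2:**
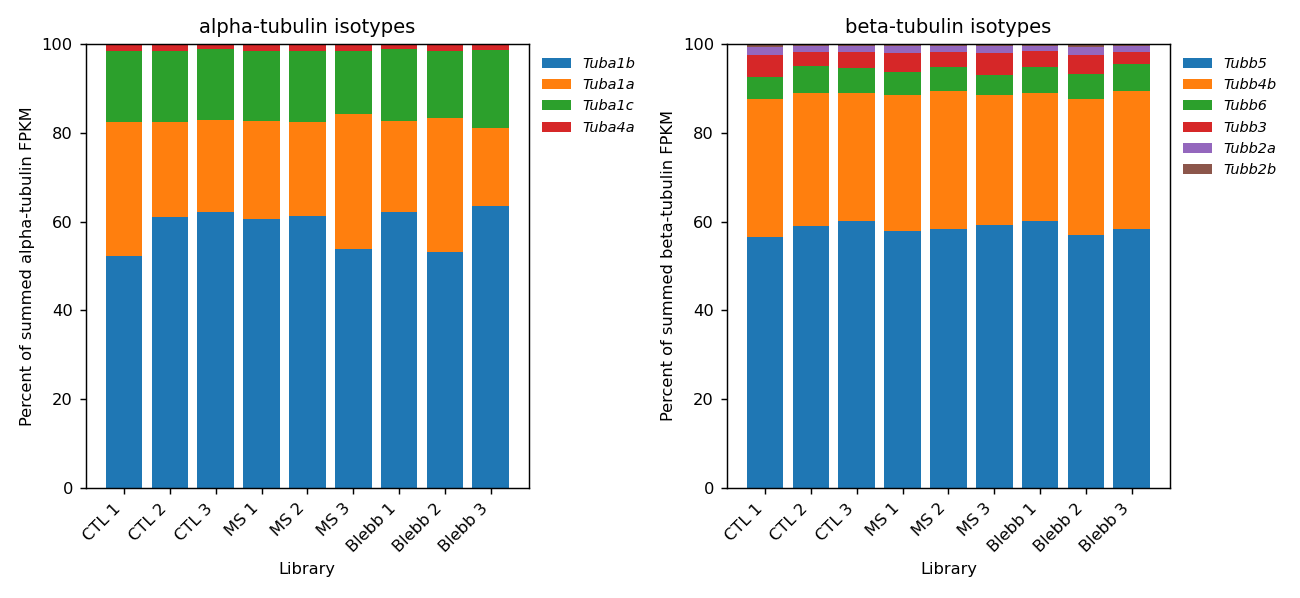
Stacked bars of the share of each isotype in the summed alpha-tubulin FPKM (left) and beta-tubulin FPKM (right), in percent, for each of the 9 libraries. Tuba1a takes 30.1% to 30.5% in CTL 1, MS 3 and Blebb 2 and 17.6% to 22.1% in the others, while Tubb5 stays between 56.5% and 60.2%.

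Mean shares were close between the treatments. Tuba1a held 24.1% ± 5.27 (SD, n = 3) of alpha-tubulin FPKM in CTL, 24.6% ± 5.14 (SD, n = 3) in MS and 22.7% ± 6.54 (SD, n = 3) in Blebb. For Tubb5 the share of beta-tubulin FPKM was 58.6% ± 1.87, 58.5% ± 0.63 and 58.5% ± 1.51 (SD, n = 3 each). Summed alpha-tubulin FPKM was 1989 ± 570 in CTL, 1962 ± 521 in MS and 2075 ± 513 in Blebb, and summed beta-tubulin FPKM was 1031 ± 327, 1055 ± 275 and 1056 ± 341 (SD, n = 3 each). These differences were all smaller than the spread within a group.

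The ratio of alpha to beta, which bears on how evenly the subunits of the dimer are supplied, was 2.03, 2.14 and 1.69 in CTL, 1.90, 1.84 and 1.84 in MS, and 1.94, 2.33 and 1.78 in Blebb. The MS libraries were the closest to each other. Stmn1 amounted to 8.08, 6.25 and 7.75 FPKM per 100 FPKM of tubulin in CTL, 7.21, 6.51 and 8.31 in MS, and 6.55, 7.35 and 7.57 in Blebb. Stathmin mRNA thus stayed within 6.25 and 8.31 per 100 of its partner's.

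The 10 shares and 4 sums and ratios were compared between each pair of groups in 42 exact two-sided permutation tests. Groups of 3 cannot give an exact p below 0.1, so no test of this kind could pass 0.05. The lowest exact permutation p was 0.2, for the share of Tubb6 in beta-tubulin FPKM, which was 5.81% ± 0.269 in Blebb and 5.07% ± 0.517 in MS (SD, n = 3), and every adjusted p of the 42 permutation tests was 1.0. With CTL replicate 1, MS replicate 3 and Blebb replicate 2 left out, the share of Tuba1a in alpha-tubulin FPKM differed by 0.616 percentage points between MS and CTL and by -2.60 between Blebb and MS, against 0.539 and -1.87 with all 9 libraries.

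The comparison of MS with CTL asks whether cyclic straining changed these mRNAs. Tubb3 had the largest log2 fold change of FPKM + 1, 0.10 (SE 0.21), with group means of 42.5 ± 6.67 FPKM in MS and 39.8 ± 7.36 FPKM in CTL (SD, n = 3). Tuba1c was lowest relative to CTL, at -0.08 (SE 0.32). For Tuba1b the value was -0.01, with a 95% interval from -0.84 to 0.82, and for Stmn1 0.01, from -0.53 to 0.54. None of the 10 members passed limma's test at an adjusted p under 0.05, where 0% of the 10109 tested genes passed, and each had an adjusted p of 1.0. None had an unadjusted p under 0.05, against 0.158% of the tested genes, and in none did the groups fail to overlap, against 3.17%. The median log2 fold change was 0.03 over the members and -0.0018 over all genes tested.

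The comparison of Blebb with MS addresses the myosin inhibitor. If the Blebb cells were not strained, it also holds the difference in straining, and the 2 cannot be told apart. Tubb3 lay lowest, at a log2 fold change of -0.24 (SE 0.21), with means of 36.4 ± 9.31 FPKM in Blebb and 42.5 ± 6.67 FPKM in MS (SD, n = 3). At the other end were Tubb6 at 0.18 (SE 0.40), Tuba1c at 0.17 (SE 0.32) and Tuba1b at 0.11 (SE 0.37). The adjusted p in limma ran from 0.897 for Tubb3 to 0.994 for Tubb5, and no member passed, as for 0% of the tested genes. No member reached an unadjusted p under 0.05, where 1.25% of the tested genes did, or had groups without overlap, where 3.73% did. Over the members the median was -0.02, and over all genes tested -0.0059.

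Blebb and CTL differed as little. The values ran from -0.14 (SE 0.21) for Tubb3 to 0.12 (SE 0.40) for Tubb6, and the median over the members was 0.03 against -0.01 over all genes tested. As before, limma called 0 of the 10 members, with 0% of the tested genes called, each member had an adjusted p of 1.0, and none had an unadjusted p under 0.05 (0.0890% of the tested genes) or groups without overlap (2.08%). The 3 comparisons share their samples pairwise, so their values are not independent.

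A p above the threshold does not show that the groups were alike, and the intervals say how large a difference could have been missed. For Tuba1a in MS against CTL the 95% interval ran from -0.38 to 0.42 on the log2 scale, the narrowest of the 10. For Tubb5 it ran from -0.74 to 0.84, and for Tubb6 from -0.96 to 0.83. The members with the low libraries had the widest intervals.

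**Figure D3:**
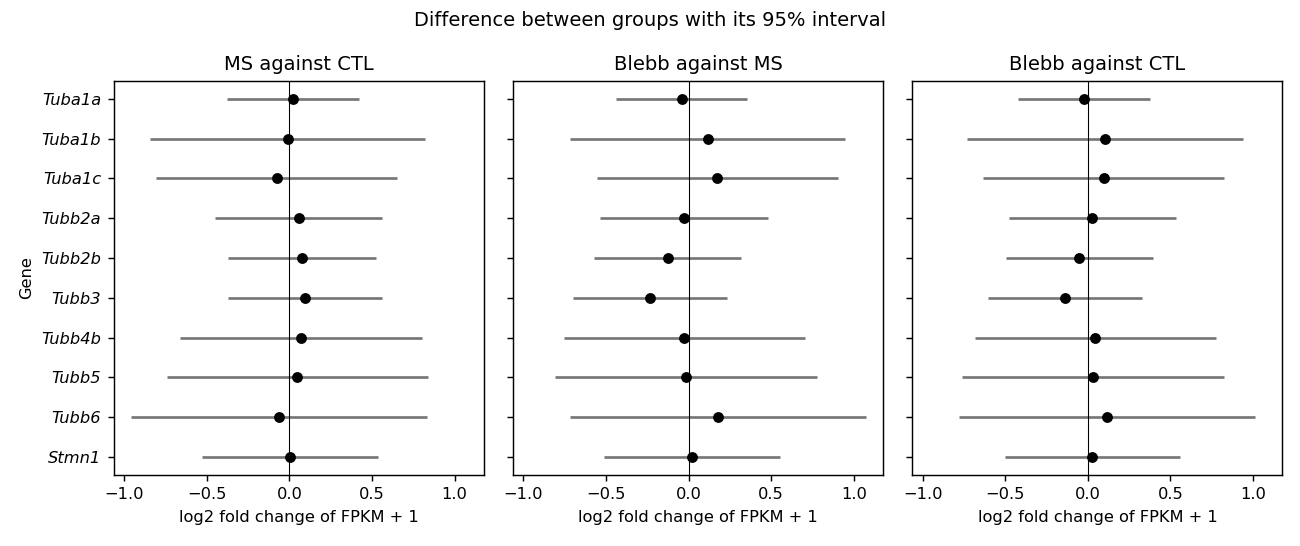
Log2 fold change of FPKM + 1 between groups, first named minus second, for the 10 genes in the 3 comparisons, with points at the limma estimate and lines for its 95% interval. Every interval contains 0, and the lines are longest for Tubb6 (-0.96 to 0.83 in MS against CTL) and Tuba1b (-0.84 to 0.82).

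When CTL replicate 1, MS replicate 3 and Blebb replicate 2 were left out, the members still did not pass in any comparison. Tubb3 was then at 0.08 in MS against CTL, -0.19 in Blebb against MS and -0.11 in Blebb against CTL, and Tubb2b moved to 0.22 and -0.31 in the first 2. With a term for these 3 libraries in limma, the lowest adjusted p of a member in Blebb against MS was 0.534, for Tuba1c, Tubb3 and Tubb6.

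Most of the variation in the tubulin mRNAs lay between libraries of the same group. The groups accounted for 0.21% of the variance of Stmn1 and 15.5% of that of Tubb3, the lowest and the highest of the members, where the median over the tested genes was 12.7%. For 7 of the 10 members the 3 lowest libraries were CTL replicate 1, MS replicate 3 and Blebb replicate 2. They were Tuba1b, Tuba1c, Tubb2a, Tubb4b, Tubb5, Tubb6 and Stmn1. Of all tested genes 16.1% were lowest in these 3 libraries and 15.8% were highest in them, so the pattern is shared with many other genes.

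Relative to its own median over the 9 libraries, Tubb6 stood at 0.474, 0.489 and 0.552 in CTL replicate 1, MS replicate 3 and Blebb replicate 2, and Tubb5 at 0.556, 0.648 and 0.578. Stmn1 stood at 0.716, 0.769 and 0.737. The exceptions among the members were Tuba1a, Tubb2b and Tubb3, with Tubb3 at 0.900, 0.985 and 0.784. Median-of-ratios factors of the libraries ran from 0.944 to 1.06, and the part of scaling in these distances was not tested.

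**Figure D4:**
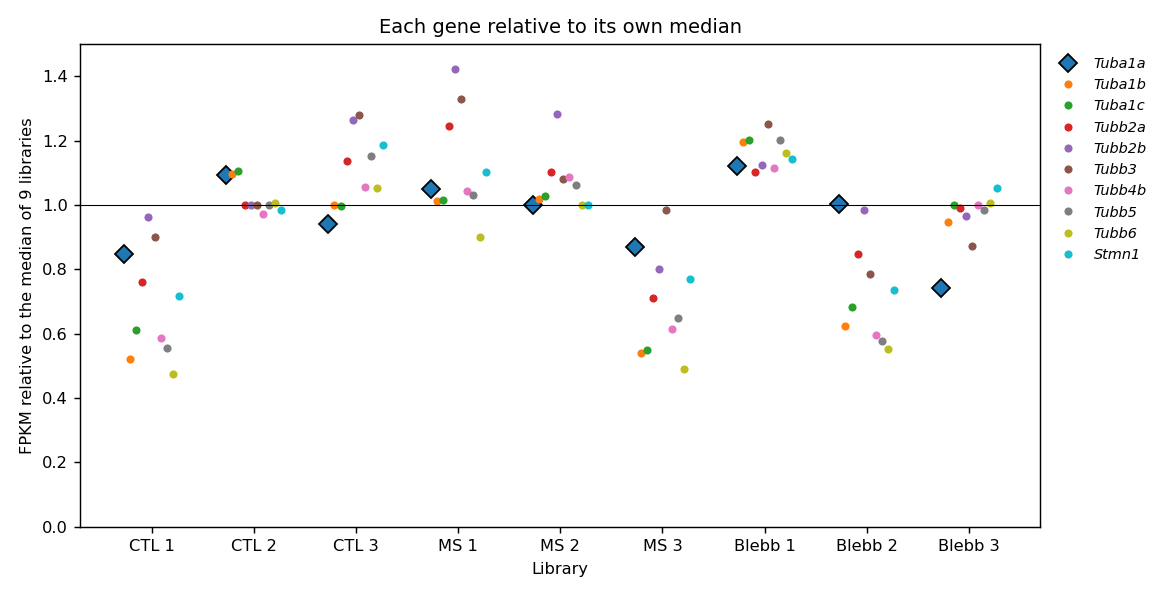
FPKM of each gene divided by its own median over the 9 libraries, for each library, with a line at 1 and Tuba1a as diamonds. In CTL 1, MS 3 and Blebb 2 the points spread from Tubb6 at 0.474 to 0.552 up to Tubb2b, Tubb3 and Tuba1a in turn, and Tuba1a is lowest in Blebb 3.

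Other genes moved with these libraries. The summed level of 9 genes of stathmin kinases and proliferation was 283, 387 and 292 FPKM in CTL replicate 1, MS replicate 3 and Blebb replicate 2 and between 606 and 795 FPKM in the other libraries. Within that list Pcna, the sliding clamp of DNA replication, was at 107, 152 and 111 FPKM, with 240 to 342 FPKM elsewhere. The melanocyte markers went the other way in sum, at 12933, 11974 and 11697 FPKM against 7444 to 8966 FPKM, mostly through Pmel at 6318, 5106 and 5679 FPKM against 2079 to 3631 FPKM. Not every marker did so. Mlana was at 970, 1209 and 1072 FPKM against 1129 to 1383 FPKM, and Mitf at 9.50, 21.2 and 8.51 FPKM against 14.2 to 36.2 FPKM. The part of these in the tubulin levels was not tested. In bulk RNA, fewer cells of a kind and less RNA per cell cannot be told apart.

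The genes whose profiles lay closest to the members with the widest ranges were sought by the mean absolute difference of centred log2 profiles over the 9 libraries, among 5165 candidates of at least 10 FPKM. For Tuba1b these were Tuba1c (0.0623), Chtf18 (0.0733) and Lmnb2 (0.0757), and the median candidate was at 0.41. Tuba1c was closest to Pold2 (0.05), a subunit of DNA polymerase delta, then to Tuba1b and Pfn1, which makes the actin-binding protein profilin. Tubb5 was closest to Chtf18 (0.0467), a loader of the replication clamp, Umps (0.0494), an enzyme of pyrimidine synthesis, and Mcm7 (0.0517), part of the replicative helicase. Closest to Tubb6 were Actb (0.0634), which makes beta-actin, Sdc1 (0.0641) and Ccne1 (0.065), a cyclin. All of these genes share the same libraries, and the likeness is a description. It rested largely on CTL replicate 1, MS replicate 3 and Blebb replicate 2. Without them Tuba1c ranked 10th of 5165 for Tuba1b, Chtf18 5th for Tubb5 and Actb 8th for Tubb6, while Lmnb2 ranked 1286th for Tuba1b, Mcm7 223rd for Tubb5 and Sdc1 405th for Tubb6.

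Among the members themselves, over all 9 libraries, Tuba1b lay closest to Tuba1c and Tubb4b closest to Tubb5, at 0.062 and 0.063. Tuba1a was at 0.345 from Tuba1b and 0.389 from Tubb6, the farthest pair of all. These distances were not recomputed without the 3 libraries that stand apart. There, FPKM of Tuba1a per FPKM of Tuba1b was 0.566 to 0.576, against 0.277 to 0.365 in the others. By sequence, Tuba1a shared 72.9% of its windows with other genes and Tuba1b 73.8%, while Tubb5 shared 0.1%. Whether shared windows bear on the distances between profiles was not tested.

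The machinery that makes and uses tubulin was read from lists of other genes. Of 23 tubulin folding genes, all tested, 17 were above 0 in MS against CTL, 7 in Blebb against MS and 12 in Blebb against CTL, beside 5008, 4956 and 4648 of all 10109 genes tested. In each comparison 0 passed the test in either direction. The first 2 comparisons share the MS libraries, with opposite sign. The most abundant, Cct7 of the chaperonin that folds tubulin, was at 379 ± 24.5, 383 ± 27.3 and 387 ± 21.6 FPKM in CTL, MS and Blebb (SD, n = 3 each). Cct7 was between 351 and 411 FPKM in all 9 libraries, but not every folding gene was so steady. In CTL replicate 1, MS replicate 3 and Blebb replicate 2, Pfdn4 was at 9.93, 12.7 and 13.0 FPKM against 23.3 to 41.6 FPKM elsewhere. Cct3 was at 130, 157 and 137 FPKM against 189 to 221 FPKM. Tbcd did not fall there, at 62.5, 55.9 and 66.6 FPKM against 48.4 to 57.9 FPKM. The list summed to 1853, 2027 and 1843 FPKM in these libraries, against 1924 to 2392 FPKM.

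Of the 10 genes of tubulin mRNA autoregulation, Ttc5 and members of the CCR4-NOT deadenylase, all were tested and 0 passed. Ttc5 was at 12.3 to 17.3 FPKM, and the most abundant, Cnot8, was at 23.0 to 29.2 FPKM. Ttc5 was lowest of its group in CTL replicate 1 and MS replicate 3 and highest of its group in Blebb replicate 2. The groups overlapped for Ttc5 and Cnot8. Not every gene of the list was so steady over the 9 libraries. Cnot6 ranged from 4.88 to 20.9 FPKM and Cnot2 from 4.61 to 17.0 FPKM, whereas Cnot10 stayed between 21.3 and 25.8 FPKM.

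The remaining lists held the tested genes of tubulin modification (13 of 14), the gamma-tubulin complex (19 of 19), microtubule binding (23 of 29), severing and depolymerising (8 of 10), motors (17 of 20), and stathmin kinases and proliferation (8 of 9). In limma 0 genes of any of them passed the adjusted threshold in any comparison, and 1 gene had an unadjusted p under 0.05, in Blebb against MS, where 1.25% of all tested genes did, so this is no result about the lists. It was Dclk1, a microtubule-binding kinase singled out after its values were seen, at 8.88, 4.58 and 10.2 FPKM in MS and 3.49, 4.16 and 5.42 FPKM in Blebb. Its log2 fold change in Blebb against MS was -0.69 (SE 0.28), with an adjusted p of 0.897 in limma. The most abundant of each were Sirt2, a tubulin deacetylase, at 68.2 to 99.0 FPKM, Tubg1, Arhgef2, a microtubule-bound activator of RhoA, at 43.4 to 101 FPKM, the depolymerising kinesin Kif2c at 7.94 to 25.7 FPKM, the dynactin subunit Dctn2 at 91.0 to 133 FPKM, and Pcna. In Blebb against MS, 7 of 8 severing and depolymerising genes and 17 of 23 microtubule-binding genes lay below 0, beside 5153 of all 10109 tested genes. Their medians, -0.36 and -0.25, were the lowest of the lists, where that of all tested genes was -0.0059. The lean was not theirs alone, with 13 of 17 motors, 13 of 19 gamma-tubulin complex genes and 6 of 8 of stathmin kinases and proliferation below 0. Of tubulin modification genes 6 of 13 were. Genes of a list can move together across libraries, so they are not separate observations. In MS replicate 1 and Blebb replicate 2, Prc1 was at 37.2 and 4.64 FPKM and Kif2c at 25.7 and 7.9 FPKM. Arhgef2 went the other way, at 43.6 and 101 FPKM. The part of single libraries in the lean was not tested, and the lists were not counted without the 3 libraries that stand apart. In Blebb against CTL, 7 of 8 severing and depolymerising and 19 of 23 microtubule-binding genes lay below 0, beside 5461 of all tested genes. Their medians were -0.14 and -0.12, against -0.01 over all tested genes. Below 0 were also 15 of 19 gamma-tubulin complex genes, 12 of 17 motors and 7 of 10 autoregulation genes. So were 6 of 8 of stathmin kinases and proliferation. Of tubulin modification genes 7 of 13, and of folding genes 11 of 23, lay below 0. This comparison shares the Blebb libraries with Blebb against MS. In Blebb against MS, Kif2c was at -0.35 (SE 0.44) and Arhgef2 at 0.20 (SE 0.37).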

How the data were processed

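RNA was extracted with TRIzol, libraries were made with a SMARTER mRNA-Seq kit, and the authors deposited 1 FPKM value per gene for each of 9 libraries. The submitters' processing notes name GRCm38 (mm10), and the aligner and counting program are not given in the sources used here. The column of CTL replicate 1 carries no unit and was read as FPKM. Values at low levels held no common step, so the depth is unknown and no counting intervals are given. The columns summed to between 439939 and 484093 FPKM.

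Groups and replicate numbers were taken from the labels. Genes that averaged 1 FPKM or more (10109) were fitted as log2(FPKM + 1) in limma 3.58.1 under R 4.3.3, with 1 mean per group and a mean-variance trend, two-sided, with Benjamini-Hochberg adjustment over all genes and a threshold of 0.05. Fold changes on this scale understate the change of low genes. The fit was tested on simulated data. Shares are percentages of the summed FPKM of all alpha- or beta-tubulin genes of a library, compared by exact permutation. Named genes are the members, the most abundant tested gene of each list, and, for members whose libraries span at least 1 on the log2 scale, the 3 nearest profiles. Ttc5, Mitf, Mlana, Pfdn4, Cct3, Tbcd, the sums of other tubulins and the relatives of Stmn1 were added after their values were seen. So were Cnot2, Cnot6, Cnot10 and Prc1. The members and lists were chosen with earlier results of these data known. Alternatives were another pseudocount, filter, scaling, trend and set of groups, a replicate block, a library term, a GC correction (9663 genes, 95.6%) and leaving out libraries. Ranges and nearest profiles without 3 libraries were added after the data were seen. Sequences, coordinates and shared windows came from GENCODE M21 (GRCm38) with Biopython 1.88, using 1 transcript per gene.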

Additional observations from a re-analysis of the deposited data

How the results depend on the processing

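Across 11 alternatives other than leaving out single libraries, 0 members passed the adjusted threshold or an unadjusted p under 0.05 in limma in any comparison, and 0 genes passed the adjusted threshold. Of 240 log2 fold changes recomputed, 230 kept their sign, and of 72 values of shares, sums and ratios 62 did. The log2 fold changes that turned were each smaller than their SE in the main fit. The alpha to beta ratio in Blebb against MS, which also turned, differed by 0.157 with all libraries. Its SD was 0.033 in MS and 0.285 in Blebb. The cause of the turns was not tested. With the GC trend removed, MS against CTL turned to 0.068 for Tuba1b, 0.0091 for Tuba1c, 0.026 for Tubb6 and 74.9 for summed alpha FPKM, Blebb against MS to -26.9 for summed alpha and -47.3 for summed beta FPKM and 0.20 for Stmn1 per 100 FPKM of tubulin, and Blebb against CTL to 0.35 for the percent of Tubb5. Quantile normalization gave -0.015 for Tuba1a and -0.030 for Stmn1 in MS against CTL and -0.018 for Stmn1 in Blebb against MS, and median-of-ratios factors gave 0.0069 for Tubb5 there. Without CTL replicate 1, MS replicate 3 and Blebb replicate 2, MS against CTL turned to -0.036 for Tubb5, -0.042 for Stmn1 and -1.79 for summed beta FPKM, Blebb against MS to 0.057 for Tubb5, -0.009 for the alpha to beta ratio and 0.20 for Stmn1 per 100 FPKM of tubulin, and Blebb against CTL to -0.057 and 0.057 for the last pair. Tubb2b fell under a minimum of 5 FPKM and has no value there.

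Leaving out 1 library at a time turned the sign of each value recomputed at least once, other than Tubb3 in Blebb against MS and the alpha to beta ratio in MS against CTL (-0.23 to -0.003), and 0 members passed. The ranges in MS against CTL were -0.065 to 0.12 for Tuba1a, -0.35 to 0.29 for Tuba1b, -0.34 to 0.22 for Tuba1c, -0.098 to 0.28 for Tubb2a, -0.055 to 0.28 for Tubb2b, -0.023 to 0.24 for Tubb3, -0.19 to 0.33 for Tubb4b, -0.27 to 0.28 for Tubb5, -0.43 to 0.25 for Tubb6, -0.19 to 0.17 for Stmn1, -347 to 274 for summed alpha FPKM, -160 to 182 for summed beta FPKM, -2.42 to 3.57 for the percent of Tuba1a, -1.15 to 0.68 for the percent of Tubb5 and -0.57 to 0.40 for Stmn1 per 100 FPKM of tubulin. In Blebb against MS they were -0.17 to 0.13 for Tuba1a, -0.19 to 0.37 for Tuba1b, -0.13 to 0.40 for Tuba1c, -0.25 to 0.13 for Tubb2a, -0.33 to 0.0041 for Tubb2b, -0.43 to -0.10 for Tubb3, -0.29 to 0.25 for Tubb4b, -0.25 to 0.29 for Tubb5, -0.13 to 0.50 for Tubb6, -0.13 to 0.21 for Stmn1, -188 to 354 and -157 to 188 for summed alpha and beta FPKM, -0.001 to 0.28 for their ratio, -5.55 to 1.09 and -0.74 to 0.77 for the percent of Tuba1a and Tubb5, and -0.60 to 0.30 for Stmn1 per 100 FPKM of tubulin. In Blebb against CTL, where Tubb3 and Tubb6 were recomputed among single genes, they were -0.33 to 0.001 for Tubb3, -0.25 to 0.43 for Tubb6, -234 to 327 and -159 to 212 for summed alpha and beta FPKM, -0.097 to 0.18 for their ratio, -5.01 to 1.70 and -1.12 to 0.71 for the percent of Tuba1a and Tubb5, and -0.76 to 0.16 for Stmn1 per 100 FPKM of tubulin. Over all genes, 0 to 1 passed the adjusted threshold in MS against CTL and in Blebb against MS, the 1 without MS replicate 2.

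With the parallel experiment number as a replicate block, 0 members and 0 genes passed, and 14, 119 and 10 genes had an unadjusted p under 0.05 in limma in the 3 comparisons, against 16, 126 and 9 without it. Deviations of same-numbered libraries correlated at -0.785 to 0.835, and in the 3 comparisons 1, 0 and 2 of 6 libraries correlated best with their own number. The libraries that stand apart carry different numbers, so this check cannot tell whether same-numbered libraries were handled together.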
